A study of Mus musculus with 16 samples.

Results

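Short 3′-UTRs without a predicted cytoplasmic polyadenylation element (CPE) were examined in RNA-immunoprecipitation and sequencing (RIP-seq) libraries of mouse macrophages. A region belonged to this class when it carried a gene symbol, had no entry in the authors' CPE prediction, was 50 to 300 bases wide and held at least 20 reads summed over the 4 Input libraries. Of 30622 annotated entries with a symbol, 2322 (7.58%) met these limits. Some entries repeat the same coordinates, and the 2322 entries were 2086 distinct regions of 1528 genes, out of 26860 distinct regions of 14925 genes. Counts of regions, medians and tests below are over distinct regions. The 11398 other distinct regions with at least 20 Input reads serve as the comparison.

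The libraries were made from bone marrow-derived macrophages (BMDMs), macrophages grown for 7 days from bone marrow cells of adult C57BL/6J 129 mice in medium that carries the growth factor M-CSF. A wild-type culture (WT, number 76) and a CPEB4 knockout culture (KO, number 73, from full-body Cpeb4-/- animals) were left untreated or were given 10 ng/ml lipopolysaccharide (LPS), a cell wall component of Gram-negative bacteria, for 9 hr. From each, the lysate RNA (Input) and the RNA pulled down by an antibody against CPEB4 (RIP) were sequenced, and rRNA was depleted from the Inputs. The 16 samples are 8 libraries run on 2 lanes, so each genotype, treatment and assay had 1 library and no difference below has a replicate check. Tests on reads compare libraries, not genotypes or treatments, and all intervals cover counting error only. Genotype and culture cannot be told apart, and in bulk RNA neither can fewer cells of a type and less RNA per cell.

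CPEB4 is a member of the CPEB family of RNA-binding proteins, which recognise CPEs, U-rich motifs in 3′-UTRs. A CPE acts together with the poly(A) signal, the hexamer AAUAAA or AUUAAA that directs 3′-end cleavage, and a bound CPEB protein can lengthen or shorten the poly(A) tail of the mRNA and so change its translation and stability. In macrophages CPEB4 is known for its action on mRNAs of the inflammatory response, many of which have long AU-rich 3′-UTRs.

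The class is not free of U-rich motifs, because the prediction asks for a poly(A) signal near the end of the region and for a spacing between CPE and signal. Read from the mm10 (GRCm38) genome on the strand of the gene, 803 of 2086 regions (38.5%) held AATAAA or ATTAAA ending at most 30 bases before their end, against 68.7% of the other regions and 43.1% of all annotated regions of 50 to 300 bases. The canonical motifs TTTTAT and TTTTAAT occurred in 125 regions (5.99%), against 64.3% of the other regions and 13.8% of all regions of that width. TTTTGT, a U-rich motif that the prediction does not use, occurred in 233 (11.2%, against 62.0% and 11.6%). The other CPE-like motifs TTTTACT, TTTTAAAT, TTTTAAGT and TTTTCAT occurred in 110 (5.27%, against 47.0% and 6.68%). At least 1 of these 3 kinds was found in 400 regions (19.2%, against 80.7% and 25.7%); only the strand of the gene was searched, and motifs may overlap each other. In 29 regions a canonical motif and a signal occurred together. Of their 29 motif copies, 10 followed or overlapped the signal, 19 lay more than 100 bases before it and 0 lay within 100 bases before it, as the prediction rule implies.

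The following windows, each 30 bases of the mm10 genome written 5′ to 3′ on the strand of the gene, are shown because the RIP results below turn on these mRNAs. Capitals mark the motif named on the line. The first 4 windows come from mRNAs at a higher level in the WT RIP than in the KO RIP, relative to all 3′-UTR reads. Snrpe was called so with LPS only. The Hnrnpd region held none of the U-rich motifs. Neither did the regions of Igfbp4 and Arf5, which were also higher in the WT RIP and have no window here.
Ccl2, TTTTGT, chr11:82037331-82037360, + strand: atgagagatgaaTTTTGTaaagatgaatgg
Ccl2, poly(A) signal, chr11:82037411-82037440, + strand: atattccttattATTAAAagaaatatatta
Snrpe, TTTTACT, chr1:133603916-133603945, - strand: ttactcaacttgTTTTACTtgcacattatt
Hnrnpd, poly(A) signal, chr5:99961169-99961198, - strand: ttctgagttctcATTAAAagaatttgcttt
The next 6 come from mRNAs at a higher level in the KO RIP on the same scale, which held a poly(A) signal and none of the U-rich motifs.
C1qb, poly(A) signal, chr4:136880133-136880162, - strand: aacgaatgggtcAATAAActcttcaaggcc
Trem2, poly(A) signal, chr17:48352239-48352268, + strand: tgcactttggacATTAAAcattctccacac
Ifitm3, poly(A) signal, chr7:141009596-141009625, - strand: cacagtggattcAATAAAgtgcacttgata
Fau, poly(A) signal, chr19:6059487-6059516, + strand: ccctgccatgctAATAAAgccactgtgtcc
Hint1, poly(A) signal, chr11:54870462-54870491, + strand: aattctgtgcctAATAAAagacattgttgc
Pomp, poly(A) signal, chr5:147875742-147875771, + strand: ttataaaaacgcAATAAAgtccccgggagt
The last window is an example of a canonical motif in a region that has no poly(A) signal near its end and so no prediction. It lies in Cadm1, an adhesion molecule of the immunoglobulin family.
Cadm1, TTTTAT, chr9:47850489-47850518, + strand: tttgttttgtttTTTTATgagtgggtggag

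The regions had a median width of 175 bases (quartiles 113 and 235), against 1187.5 bases for the other regions, and a median G and C content of 51.6%, against 45.9%. They held from 20 to 3884 Input reads, with a median of 58. Of 2068 regions whose transcript is in GENCODE M21, 1568 belonged to a protein-coding transcript and 460 (22.2%, against 5.14% of the other regions) to a transcript annotated for nonsense-mediated decay (NMD), the pathway that degrades mRNAs with a premature stop codon. In 598 regions (28.7%, against 13.2%) the sequence is coding in another isoform of the gene, and 409 of these belonged to NMD transcripts. Reads counted there therefore need not come from the 3′-UTR named. 303 regions overlapped an exon of another gene, 193 of them on the opposite strand, and the library kit does not mark strand. 273 regions overlapped a longer or shifted region that does have a CPE prediction, and 736 overlapped no other region and no other gene.

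Summed over all entries with a symbol, the 8 libraries held from 467696 (KO RIP, untreated) to 2492300 (WT RIP, LPS) counts, here called 3′-UTR reads. A read in repeated or overlapping entries is counted more than once in these sums. Levels are given as CPM, the reads of a region per 1000000 3′-UTR reads of the library. The 8 macrophage markers, among them Csf1r and Adgre1, were read in every Input, with a summed level of 2539 to 3557 CPM. Markers of T cells, B cells, neutrophils, fibroblasts and dendritic cells summed to at most 1.05, and Cd3e, S100a8, Ms4a1 and Dcn were at 0. Some of these markers had no annotated region and could not be read. A region existed for 1 of 3 T cell and 1 of 4 neutrophil markers. For B cells, fibroblasts and dendritic cells it existed for 2 of 3 each. The 3′-UTR of Cpeb4 stood at 130.2 and 136 CPM in the WT Inputs (untreated, LPS) and at 52.0 and 52.6 in the KO Inputs, so it was lower in the KO Inputs under both treatments, and some of its transcript was still read there. Its RIP levels were 836 and 770.4 for the WT, against 257 and 367 for the KO. Summed in this way, 3′-UTR reads came to 48.9% and 70.1% of the library totals of the WT RIPs but to 27.3% and 31.8% of those of the KO RIPs. Because of the repeated counting these are not shares of distinct reads. Scaling to library totals in place of 3′-UTR reads would raise every WT over KO RIP log2 ratio by 0.84 (untreated) and 1.14 (LPS). All ratios below are relative to the 3′-UTR reads of their library.

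The short 3′-UTRs took a smaller share of the WT RIPs than of the KO RIPs. Summed over the 2322 entries, their share of the reads of all entries with a symbol was 5.23% in the WT Input and 4.75% in the KO Input of untreated cells, and 5.53% and 5.81% with LPS. In the RIPs it was 3.27% in the WT and 4.65% in the KO untreated, and 3.40% (WT) and 5.24% (KO) with LPS. Both WT RIPs thus lay below all 6 other libraries, whereas the KO RIPs, at 4.65% and 5.24%, lay close to or within the range of the Inputs. Over distinct regions the 8 shares ran from 3.57% to 6.17%, in the same pattern. The log2 ratio of the shares over entries, WT over KO, was -0.51 and -0.62 in the RIPs and 0.14 and -0.07 in the Inputs. On library totals the sign of the RIP ratio turned, to 0.33 and 0.52. Scaled to 3′-UTR reads, the WT RIP over Input ratio of the shares was -0.68 (untreated) and -0.70 (LPS), and the KO one -0.03 and -0.15.

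**Figure D1:**
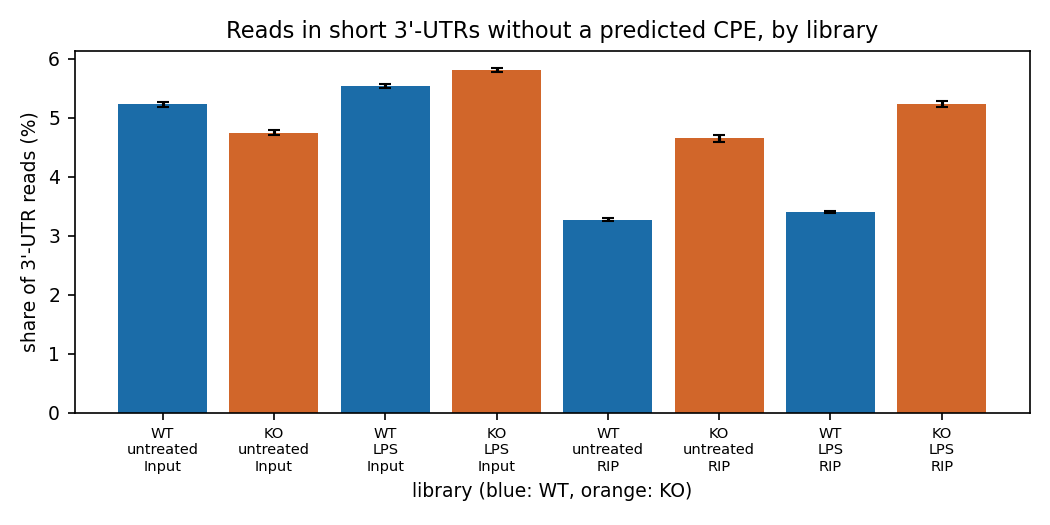
Share of 3′-UTR reads (%) that fell in short 3′-UTRs without a predicted CPE, 1 bar per library (blue WT, orange KO), with 95% Wilson intervals that cover counting error only. The WT RIPs stood at 3.27% and 3.40%, and the other 6 libraries between 4.65% and 5.81%.

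To examine single regions, the reads of each were set against all other 3′-UTR reads in 2 libraries by a chi-square test, given at least 10 reads in both together. A region was called with a Benjamini-Yekutieli adjusted p under 0.02 and a log2 ratio beyond 0.5. In the untreated RIPs, 1329 of the 2086 regions could be tested, and 99 (7.45%) were lower and 5 (0.376%) higher in the WT RIP than in the KO RIP. Over all 13124 regions tested, 4.84% were called lower and 3.6% higher. In the LPS RIPs, 1616 regions could be tested, and 313 (19.4%) were lower and 13 (0.804%) higher in the WT. The background was 10.7% lower and 6.97% higher over 13800 regions. These splits depend on the scaling: with TMM factors 54 were lower and 12 higher untreated and 174 and 51 with LPS, and on library totals 10 were lower and 87 higher untreated and 25 and 282 with LPS. An edgeR exact test that assumes a biological coefficient of variation of 0.4 between libraries called 0 in either direction after adjustment (unadjusted p under 0.05 in 21 lower and 14 higher untreated and in 111 and 14 with LPS, against 98 and 195 and 371 and 172 over all regions). The median log2 ratio was -0.57 untreated and -0.67 with LPS, against -0.08 and -0.04 in the other regions.

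The medians lay nearer to 0 in deeper regions. The 1 read added to each library moves shallow ratios toward the KO, because the KO RIPs held fewer 3′-UTR reads. Lcn2, with 0 reads in both untreated RIPs, comes to -1.83 in this way. An alternative with added reads in proportion to library size is given at the end. From 50 reads per pair upward they were -0.37 (359 regions) and -0.36 (595 regions), against 0.07 and 0.14 in the other regions. Relative to the Inputs, the input-corrected ratio (WT over KO in RIP minus WT over KO in Input) had a median of -1.0 over the 421 regions with at least 10 reads in all 4 untreated libraries, and of -0.79 over 800 with LPS. Its counting interval lay below 0 for 226 regions and above 0 for 17 untreated, and for 363 and 50 with LPS. These are 53.7% below and 4.04% above untreated and 45.4% and 6.25% with LPS, against 22.2% and 18.3% and 27.2% and 18.7% over all regions. The corresponding medians of the other regions were -0.04 and -0.06. On library totals the medians of the short regions were -0.17 and 0.41. By comparison, the 143 short regions that do have a CPE prediction had median WT over KO RIP ratios of 0.17 (119 tested) and -0.05 (128 tested).

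Few regions differed between the Inputs of the genotypes. Untreated, 5 of 1719 tested regions were higher in the WT Input and 0 were lower, at a background of 0.204% in either direction. At an unadjusted p under 0.05 the same chi-square test found 127 higher and 55 lower, against 755 and 987 of all 12736 regions. The 5 regions belonged to Pkig, Rpl41 and Sqstm1, named here after their values were seen. With LPS, 1 of 2010 was higher (0.558% of all regions) and 5 were lower (0.661%), and at an unadjusted p under 0.05 the counts were 84 and 120, against 1230 and 1035 of all 13611 regions. Marco, a scavenger receptor, was the higher one, at 116 WT and 36 KO reads (log2 ratio 1.32, 95% interval 0.79 to 1.86). The lower ones were Ass1, Ifi27l2a, Irf8, Mt2 and Tspo, with log2 ratios from -1.53 to -0.63, also named after their values were seen.

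The direction was shared between treatments for most regions called untreated. Of the 5 regions higher in the untreated WT RIP, 4 were also among the 13 with LPS (80.0% and 30.8%). Of the 99 lower ones, 77 were among the 313 with LPS (77.8% and 24.6%), and these belonged to 66 genes. 0 regions were called in opposite directions. The same overlap over all regions is not given, so these shares are not shown to be particular to the short regions. Over the 1227 regions tested in both treatments the log2 ratios had a Pearson r of 0.65 and a Spearman rho of 0.68, a description over regions that share their libraries and in part their reads.

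**Figure D2:**
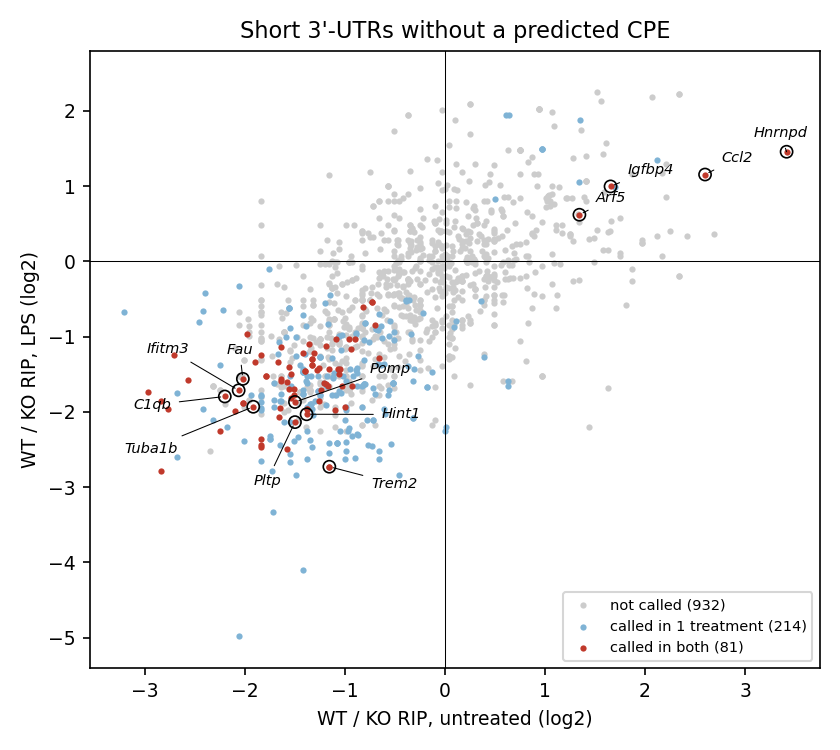
WT over KO RIP log2 ratio of each short 3′-UTR without a predicted CPE, untreated (x axis) and with LPS (y axis), relative to all 3′-UTR reads, for the 1227 regions tested in both treatments. Red points are the 81 regions called in the same direction in both, blue points 214 called in 1 treatment, grey points 932 not called. Named circles are the 4 genes highest and 8 genes lowest in WT by the naming rule. Most red points lie in the lower left quadrant, which is the KO direction, and scaling to library totals would move all points up by 1.14 and right by 0.84.

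The mRNAs higher in the WT RIP under both treatments came from 4 genes. Ccl2, the chemokine that recruits monocytes (mm10 chr11:82037179-82037453, + strand, 275 bases, 28.4% G and C), had 3 (WT) and 4 (KO) Input reads untreated and 52 and 27 with LPS. Its WT RIPs held 107 (untreated) and 292 (LPS) reads, and its KO RIPs 4 and 45. Both WT RIPs stood above every other library, at 64.2 and 117 CPM. WT over KO, the RIP log2 ratio came to 2.60 untreated (95% interval 1.31 to 3.89) and to 1.16 with LPS (0.71 to 1.60). The region held 2 copies of TTTTGT and the signal ATTAAA shown above, and no TTTTAT or TTTTAAT.

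Hnrnpd, also known as AUF1, encodes a protein that binds AU-rich elements. Its region (chr5:99961168-99961333, - strand, 166 bases, from an NMD transcript) held 75 (untreated) and 164 (LPS) reads in the WT RIPs, against 1 and 20 in the KO RIPs. Its Inputs held 13 (WT) and 36 (KO) reads untreated and 56 and 57 with LPS. The log2 ratio of the RIPs was 3.42 (1.39 to 5.44) and 1.46 (0.80 to 2.11), whereas both Input levels were higher in the KO. The region held a poly(A) signal and none of the U-rich motifs. It overlaps another Hnrnpd region that has a CPE prediction, so its reads cannot be assigned to the short form alone.

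Igfbp4, an insulin-like growth factor binding protein, was read 403 times in the untreated WT RIP and 35 times in the KO one, and 176 and 30 times with LPS, from Inputs of 208 and 251 and of 135 and 134 reads. Its log2 ratios were 1.66 (1.16 to 2.15) and 1.0 (0.45 to 1.55). Arf5, a small GTPase of vesicle transport, had 198 and 21 RIP reads untreated and 386 and 87 with LPS, from Inputs of 100 and 128 and of 268 and 274 reads. Its log2 ratios were 1.34 (0.71 to 1.98) and 0.62 (0.29 to 0.95). Neither held a poly(A) signal near its end or a U-rich motif, and their G and C content was 57.1% (Igfbp4) and 67% (Arf5). Both regions overlap another annotated region, so their reads cannot be assigned to the short form alone. Of the 4 genes only Ccl2 has a region without such an overlap. In neither did the WT RIP exceed its own Input by the call limits (log2 ratios from -0.01 to 0.14), while the KO RIPs stood below their Inputs, at 74.8 against 189 and 34.4 against 89.2 CPM for Igfbp4 and at 44.9 against 96.5 and 99.8 against 182 for Arf5. With LPS alone, regions of Snrpe, Lig3, Hnrnpk, Gm10401, Piezo1 and Manf were also higher in the WT, named here after their values were seen.

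8 genes were named among those lower in the WT RIP than in the KO RIP under both treatments. C1qb, a chain of complement component C1q (chr4:136880129-136880288, - strand), had 133 (WT) and 182 (KO) Input reads untreated and 242 and 219 with LPS. Its RIPs had 37 (WT) and 48 (KO) reads untreated and 46 and 56 with LPS, in libraries of unequal depth. In CPM, the WT RIPs stood at 22.2 and 18.5, below the KO RIPs at 103 and 64.3, and all 4 Inputs lay between 128 and 146. The log2 ratio came to -2.20 untreated (-2.81 to -1.59) and to -1.79 with LPS (-2.35 to -1.24).

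Trem2, a lipid-sensing receptor of myeloid cells (chr17:48352025-48352273, + strand), stood at 168 (WT) and 142 (KO) CPM in the untreated Inputs and at 55.9 and 64.6 with LPS. Its RIP levels were 52.2 and 115 untreated and 7.22 and 49.3 with LPS, so the WT RIP was lowest in each treatment. The log2 ratio was -1.15 (-1.64 to -0.67) and -2.73 (-3.50 to -1.95). On library totals the untreated one keeps its sign but comes to lie within the limit of 0.5. Ifitm3, an interferon-induced membrane protein that restricts virus entry (chr7:141009586-141009724, - strand), stood at 78.6 (WT) and 103 (KO) in the untreated Inputs, at 167 and 204 in the LPS Inputs, at 20.4 and 85.5 in the untreated RIPs and at 54.6 and 179 in the LPS RIPs. Its Input rose with LPS by 1.07 (WT) and 0.98 (KO) on the log2 scale, and the KO RIP exceeded the WT RIP in both treatments (log2 ratios -2.06, -2.71 to -1.41, and -1.71, -2.04 to -1.38).

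Fau, which encodes ribosomal protein S30 fused to a ubiquitin-like peptide, has a region of only 50 bases (chr19:6059475-6059524, + strand). It stood at 14 to 22 CPM in the Inputs, at 16.8 and 12.4 in the WT RIPs and at 68.4 and 36.7 in the KO RIPs. Here the KO RIPs stood above every Input and the WT RIPs near or below them, and the log2 ratios were -2.02 (-2.74 to -1.30) and -1.56 (-2.26 to -0.86). Tuba1b, an alpha-tubulin, had WT RIPs below all Inputs and KO RIPs above them, with 42.2 to 52.6 in the Inputs, 19.8 and 14 in the WT RIPs and 74.8 and 53.9 in the KO RIPs (-1.92, -2.59 to -1.24, and -1.93, -2.55 to -1.31). Pltp (phospholipid transfer), Hint1 (a nucleotide hydrolase) and Pomp (proteasome assembly) had log2 ratios of -1.50, -1.38 and -1.50 untreated and of -2.13, -2.03 and -1.87 with LPS. Of these 8 regions 6 held a poly(A) signal near their end and 0 held a U-rich motif of the 3 kinds. That of Pltp overlaps a region with a prediction and an exon of another gene.

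**Figure D3:**
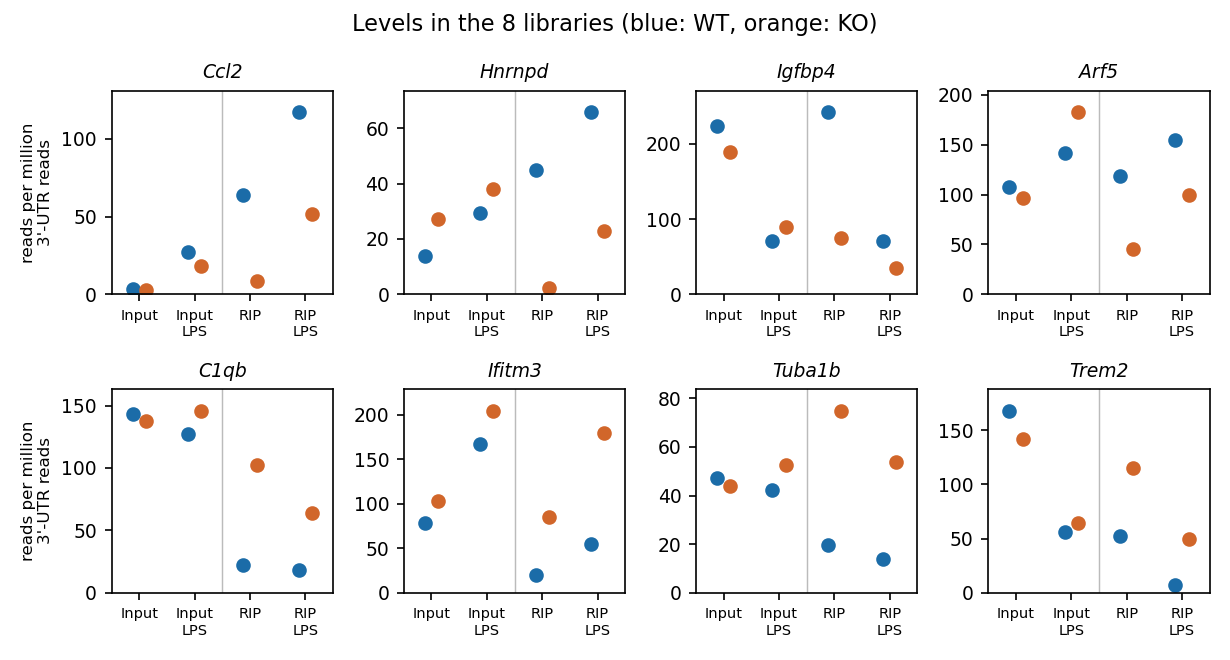
Level in CPM in each of the 8 libraries (blue WT, orange KO, left to right Input untreated, Input LPS, RIP untreated, RIP LPS) for 4 regions higher and 4 lower in the WT RIP. The WT RIP lies above the KO RIP in the upper row and below it in the lower row, and each point is 1 library.

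The ratios ran along with U-rich motif content. Regions with at least 1 of the 3 kinds of motif had a median WT over KO RIP log2 ratio of -0.11 untreated (289 regions) and 0.05 with LPS (342). Of them 18 of 289 and 26 of 342 were called lower in the WT. Regions without one had medians of -0.70 (1040 regions) and -0.89 (1274), and 81 of 1040 and 287 of 1274 were called lower. Over all regions tested, 4.84% and 10.7% were called lower. The called shares with and without a motif were thus similar untreated and differed with LPS. The other regions stood at 0.01 and 0.08 with a motif and at -0.66 and -0.79 without, so the split was no property of short regions alone. With TTTTGT the medians were -0.06 and 0.11, with TTTTAT or TTTTAAT -0.03 and 0.07. Regions with a poly(A) signal and no U-rich motif stood at -0.81 and -1.01. With the element ATTTA, found in 317 regions (15.2%, against 70.6% of the other regions), they were -0.25 and -0.26, and without it -0.66 and -0.78.

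**Figure D4:**
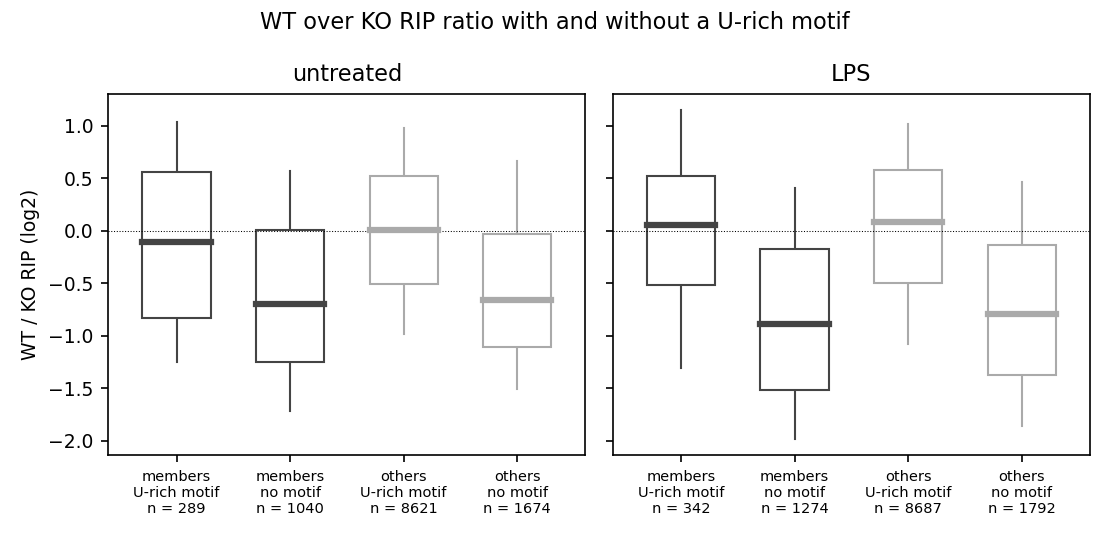
WT over KO RIP log2 ratio, relative to all 3′-UTR reads, of short 3′-UTRs without a predicted CPE (members) and of other regions with at least 20 Input reads (others), split by whether they hold a U-rich motif of the 3 kinds. Bars are medians, boxes quartiles and whiskers the 10th and 90th percentiles over regions. Medians without a motif lie between -0.66 and -0.89, those with one between -0.11 and 0.08, and all would rise by 0.84 (untreated) and 1.14 (LPS) on library totals, where those without a motif turn sign.

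Overlap with annotation also moved with the ratio. The regions that overlap a predicted region of the table had medians of 0.04 (224 tested, untreated) and -0.01 (246, LPS), and the rest -0.70 and -0.84. Those that overlap no other region and no other gene stood at -0.83 and -1.0. NMD transcript regions had medians of -0.83 and -1.03. Where another region of the gene carried a prediction, the medians were -0.29 and -0.26. The part of shared reads in these values was not tested.

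Base composition and width ran along with the ratio too. In regions under 40% G and C the medians were -0.28 untreated and -0.20 with LPS, and in regions of 60% and over they were -0.83 and -1.03. The other regions fell from 0.18 to -0.73 and from 0.38 to -0.97 over the same range. Over the short regions the Spearman correlation of the ratio with G and C content was -0.17 untreated and -0.26 with LPS, and over the other regions -0.27 and -0.41. Regions of 50 to 100 bases had medians of -0.75 and -0.96 and those of 251 to 300 bases -0.46 and -0.51. At the limits of the class, regions of 291 to 300 bases had medians of -0.25 and -0.35 and those of 301 to 310 bases -0.31 and -0.74. Regions with 20 to 22 Input reads had -0.66 and -0.44, and those with 17 to 19 had -0.37 and -0.43. U-rich motifs, base composition and width go together in these sequences and were not separated.

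**Figure D5:**
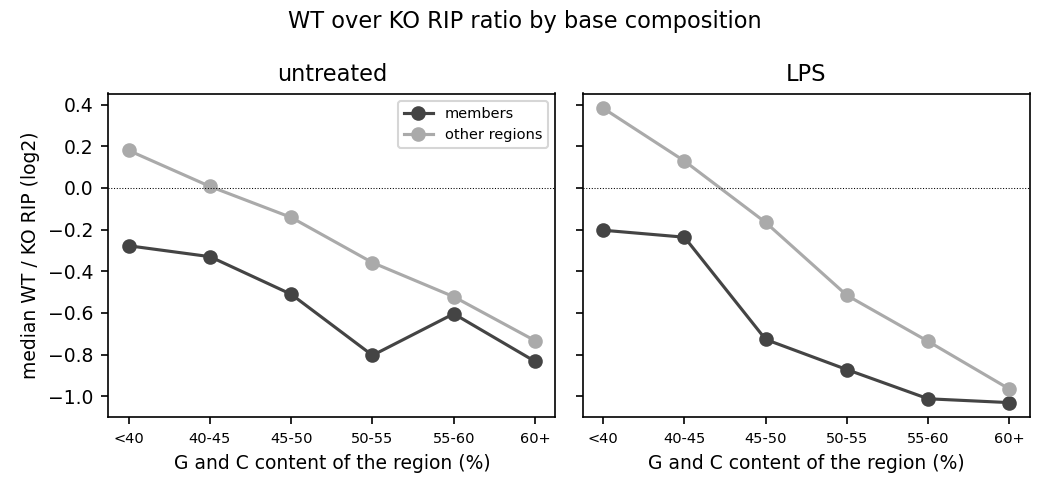
Median WT over KO RIP log2 ratio, relative to all 3′-UTR reads, in bins of G and C content (x axis, %) for short 3′-UTRs without a predicted CPE (members, dark) and other regions with at least 20 Input reads (grey). Each point is a median over at least 140 regions. The short regions lie below the others in every bin, from -0.20 to -1.03 with LPS, values that turn sign on library totals, which raise both curves alike.

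To see which short 3′-UTRs were recovered in the RIP at all, RIP was set against Input within each genotype. The limit of 20 reads was set on the Inputs, the denominator of these ratios, and the background has no such limit. The counts called are therefore a description. In the WT, 370 of 1644 tested regions were lower and 78 higher in the RIP than in the Input untreated, at a background of 17.2% and 16.8%. With LPS 683 of 1961 were lower and 123 higher, at 23.5% and 20.2%. In the KO RIPs, which serve as the control for what the antibody recovers without CPEB4, 29 of 1550 were lower and 77 higher untreated (background 5.59% and 9.66%), and 94 and 111 of 1813 with LPS (8.59% and 11.6%). On library totals the counts were 419 lower and 248 higher in the WT with LPS, and in the KO 208 and 27 untreated and 403 and 44 with LPS. With TMM factors the WT counts with LPS were 531 and 191. Of the other regions with at least 20 Input reads, 18.6% were lower and 19.3% higher in the WT untreated, and 25.3% and 22.7% with LPS. In the KO these shares were 6.43% and 9.54% untreated and 9.70% and 11.8% with LPS. The WT medians were -0.84 and -1.05 and the KO medians -0.08 and -0.27. In the WT 57 regions were higher and 310 lower in both treatments, without the same overlap over all regions beside it.

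Of the genes higher in the WT RIP than in the Input under both treatments, 5 were named by the size of the ratio. Pabpc1, the cytoplasmic poly(A)-binding protein, had 7 (WT) and 22 (KO) Input reads untreated and 33 and 14 with LPS, against 439 and 104 RIP reads untreated and 456 and 120 with LPS. It was thus higher in the RIPs of both genotypes than in their Inputs, and the WT over KO RIP log2 ratio was 0.23 (-0.07 to 0.54) and 0.40 (0.11 to 0.69), neither of which passed. Rbms1 is a single-stranded nucleic acid binding protein, and Manf is a factor of the endoplasmic reticulum stress response. Their WT RIP over Input log2 ratios were 4.12 (2.69 to 5.56) and 4.89 (2.87 to 6.90) untreated. These rest on only 3 (Rbms1) and 1 (Manf) untreated WT Input reads. With LPS, from 12 and 47 WT Input reads, the ratios were 3.81 and 1.999. For these regions the WT over KO RIP ratios were 0.81 and 0.90 untreated and 0.26 and 0.33 with LPS, and none passed, although another, longer region of Manf was called higher with LPS (202 WT and 27 KO reads, log2 ratio 1.34). Stag1, a cohesin subunit, lay in the KO direction, at -1.01 and -0.88, and did not pass either. The Rbms1 and Stag1 regions overlap a region with a prediction.

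Snrpe, a core Sm protein of the spliceosome, differed from these. It had 3 and 4 reads in the WT Inputs and 97 and 96 in the WT RIPs, and 9 and 9 reads in the KO Inputs and 13 and 11 in the KO RIPs. The WT over KO RIP log2 ratio was 0.97 (0.17 to 1.78) untreated, which did not pass, and 1.5 (0.63 to 2.36) with LPS, which did. Its region (chr1:133603871-133604020, - strand) held the TTTTACT shown above, a poly(A) signal and TTTTGT. The 3 regions of Snrpe in the class overlap and hold the same reads.

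Gene groups were examined by their counts of regions, again relative to all 3′-UTR reads and beside the backgrounds given above. Regions of 1 gene can overlap and share reads, so counts of genes tested are added for most groups. Scaling to library totals adds the shifts given above to all WT over KO RIP ratios. Of cytosolic ribosomal protein regions, 6 of 27 were lower in the untreated WT RIP and 8 of 25 with LPS, and 0 were higher. The lower ones came from 4 of 21 genes untreated and 6 of 20 with LPS. Rpl41 stood at 151 (WT) and 391 (KO) CPM in the untreated RIPs and at 75.8 and 295 with LPS, with log2 ratios of -1.37 and -1.96. Ribosomal protein regions were also higher in the KO RIP than in the KO Input, in 10 of 27 regions untreated and 5 of 26 with LPS. Of mitochondrial ribosomal protein regions 0 of 18 and 0 of 22 were called. For the oxidative phosphorylation complexes, 3 of 23 and 12 of 32 regions were lower in the WT RIP (3 of 21 and 11 of 28 genes) and 0 higher. Atp5d of ATP synthase was at -1.27 (not called) and -1.72, while Cox8a of cytochrome c oxidase did not pass, at 0.11 and -0.11. Of glycolysis regions 0 of 10 and 9 of 13 were lower, and those 9 came from 4 of 6 genes. Aldoa was at -0.81 (not called) and -1.63 and Gpi1 at -1.40 (not called) and -1.23.

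In 6 further groups the regions called between the RIPs were all lower in the WT. Of complement and lipid regions 4 of 9 and 10 of 12 were lower in the WT RIP (4 of 6 and 5 of 7 genes), with C1qa at -0.93 and -1.66 and C1qc at -0.90 and -1.03. Of the interferon-stimulated regions 4 of 5 and 7 of 12 were lower (4 of 5 and 7 of 9 genes), with Bst2 (tetherin) at -1.06 and -1.49. Antigen presentation had 1 of 4 and 3 of 6 lower, with H2-D1, an MHC class I heavy chain, at -1.54 and -1.49 and H2-T23 at -0.73 (not called) and -2.46. In the lysosomal group 3 of 9 and 6 of 9 regions were lower (2 of 7 and 4 of 7 genes). Grn (progranulin) was at -1.08 and -1.03 and Atp6v0c of the proton pump at -0.51 (not called) and -0.94. For metal and redox regions the counts were 5 of 12 and 7 of 12 (4 of 10 and 5 of 10 genes). The ferritin chain Fth1 was at -0.66 and -1.29 and the chain Ftl1 at -0.70 and -0.84. Of actin and tubulin regions 5 of 20 and 10 of 20 were lower (5 of 13 and 7 of 13 genes), with Actb at -1.42 and -1.22 and Tmsb4x (thymosin beta-4) at -0.95 and -1.03. Among the called values of this paragraph, the sign turns on library totals for Fth1 and Ftl1 untreated and for Ftl1, Tmsb4x, C1qc, Grn and Atp6v0c with LPS. Others keep their sign there but come to lie within the log2 ratio limit of 0.5. These are C1qa, C1qc, Bst2, Grn and Tmsb4x untreated and Bst2, H2-D1, Fth1 and Actb with LPS.

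The remaining groups had few tested regions or other directions. Sm and LSm proteins had 0 of 6 called untreated and 3 of 7 higher with LPS, all 3 of them the overlapping regions of Snrpe. Snrpa did not pass, at 1.09 and 1.81, nor did Snrpb, at -0.37 and 0.29. Of the proteasome regions 1 of 24 and 9 of 30 were lower (1 of 16 and 7 of 21 genes). The immunoproteasome subunit Psmb8 was at -1.32 (not called) and -2.04 and Psmd2 at -1.55 and -0.89 (not called). The replication-dependent histones end in a stem-loop and not in a poly(A) tail. Of their 13 regions, 6 of 10 tested untreated and 3 of 5 with LPS were lower in the WT RIP than in the WT Input, while between the RIPs 3 and 1 could be tested and 0 and 1 were lower. Hist2h2aa1 and Hist2h2aa2 are near-identical copies, so their reads are uncertain, as are those of ribosomal protein, ferritin, actin, tubulin and MHC class I genes, which have close copies or processed pseudogenes. Of the 4 chemokine and interleukin genes, Ccl2 was higher in the WT RIP with LPS, Ccl5 lower at -1.38 (-1.56 to -1.20), and Il1rn did not pass, at 1.87 (0.40 to 3.33) untreated and -0.26 (-0.46 to -0.07) with LPS. The Il1rn region overlaps a region with a prediction. Il27, named here to complete the 4, did not pass, at -0.25 from 8 WT and 2 KO RIP reads untreated and -0.57 from 47 and 24 with LPS. Without the 1 read added to each library its untreated ratio would be positive.

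The most abundant regions in Input set the scale of the class. Actb stood at 792 (WT) and 655 (KO) CPM in the untreated Inputs and at 608 and 749 with LPS, and at 585 and 1561 (untreated) and 500.3 and 1164 (LPS) in the RIPs. Both KO RIPs thus lay above all other libraries. The Actb and Tmsb4x regions overlap a region with a prediction. Fcer1g, the Fc receptor gamma chain, stood at 475 and 375 in the untreated Inputs, at 429.5 and 521 in the LPS Inputs, at 140.5 and 323 in the untreated RIPs and at 188 and 578 in the LPS RIPs. Its WT over KO RIP log2 ratio was -1.20 (-1.50 to -0.91) and -1.62 (-1.80 to -1.44). On library totals both values keep their sign but come to lie within the limit of 0.5. Pfn1, profilin-1, differed little anywhere, with 304 to 349 in the Inputs and 285 to 344 in the RIPs. Its WT over KO RIP log2 ratio did not pass, at -0.05 (-0.32 to 0.22) and -0.28 (-0.47 to -0.08). Pnp, purine nucleoside phosphorylase, was at -0.64 (-1.16 to -0.11, not called) and -0.86 (-1.03 to -0.70), which turns to 0.28 on library totals.

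Per kilobase, the median Input level fell with width, from 124.7 CPM per kb in regions of 50 to 100 bases to 45.4 in those of 251 to 300 bases. Reads of 100 bases were counted with any overlap, and adding the read length to the width gave 53.0 and 33.1. Levels of regions this short are therefore compared here within a region and not between regions.

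Input levels were next compared between LPS and untreated cells. The limit of 20 reads was set on the sum of all Inputs, so a region could enter the class through 1 treatment alone, and the counts called are a description. In the WT 126 of 2004 tested regions were higher with LPS and 102 lower, at a background of 10.1% and 12%. In the KO 200 of 1997 were higher and 76 lower, at 11.4% and 14.2%. With TMM factors the counts were 172 higher and 75 lower (WT) and 279 and 57 (KO). The medians were 0.01 and 0.17. Of the called regions 114 were higher in both genotypes and 51 lower in both, again without the same overlap over all regions.

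5 genes were named by the size of the increase. Each had at most 4 reads in either untreated Input and reached the limit of 20 Input reads only through the LPS Inputs, where they are high, so their place in the class already required a difference and their ratios are given as a description. Lcn2, lipocalin-2, which sequesters bacterial siderophores, had 0 reads in both untreated Inputs and 283 (WT) and 237 (KO) with LPS. Against a floor of 3 reads per untreated library it was at least 46.2-fold higher in the WT and at least 69.7-fold higher in the KO. Cfb, complement factor B, went from 0 and 0 reads to 100 and 96 (at least 16.3-fold and 28.2-fold). Ptges, a prostaglandin E synthase, went from 1 and 3 reads to 515 and 520, and its log2 ratios were 6.98 (4.98 to 8.98) and 6.84 (5.43 to 8.26). Ccl5 went from 4 and 3 reads to 657 and 645, with 6.01 (4.74 to 7.28) and 7.16 (5.74 to 8.57). Cd40, the co-stimulatory receptor, read here in a 69-base NMD region, went from 1 and 0 reads to 140 and 111 (WT log2 ratio 5.11, 3.10 to 7.12, and at least 32.7-fold in the KO).

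These LPS-induced short 3′-UTRs were also read in the RIPs. With LPS, Lcn2 stood at 21.7 (WT) and 67.7 (KO) CPM in the RIPs, below its Inputs at 149 and 158. Ccl5 stood at 213 and 553 in the RIPs and at 346 and 429 in the Inputs. Both were called lower in the WT RIP, Lcn2 at -1.64 (-2.17 to -1.11), as were Cfb at -2.16 (-2.88 to -1.43) and Ptges at -0.75 (-0.99 to -0.51), which turns to 0.39 on library totals. The Cfb region overlaps an exon of another gene. Cd40 was not called, at -0.81 (-1.37 to -0.25). Ccl2, by comparison, rose in Input by 2.70 (WT, 1.23 to 4.16) and 2.31 (KO, 0.93 to 3.68) and was called higher in the WT RIP.

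Of the interferon-stimulated genes 7 of 13 regions were higher with LPS in the WT and 11 of 13 in the KO. Only 4 of these 13 held at least 10 reads in the 2 untreated Inputs together. The rest met the Input read limit only through the LPS Inputs, so these counts are a description. All 4 chemokine and interleukin regions were higher in both genotypes, of which Ccl2, Ccl5 and Il27 met the limit only through the LPS Inputs. Of the proteasome 6 of 31 and 7 of 28 were higher and the rest did not pass. Here 24 of the 31 regions held at least 10 reads in the 2 untreated Inputs together. These 3 groups had 0 regions called lower, and they were not tested against the background given above. Psmb8 rose by 1.42 and 2.26 and Il1rn, the interleukin-1 receptor antagonist, by 3.62 and 4.52. Among decreases, Pdxk, pyridoxal kinase, went from 64.6 (WT) and 42.2 (KO) CPM to 3.69 and 3.33, with log2 ratios of -3.96 (-5.02 to -2.90) and -3.43 (-4.64 to -2.21). Its Inputs held 60 (WT) and 56 (KO) reads untreated but 7 and 5 with LPS. Pdxk thus met the Input read limit only through the untreated Inputs, where it is high, so its ratios are a description. H2afv, a histone H2A variant, was at -2.69 and -2.31, Tgfbr1, a receptor of transforming growth factor beta, at -2.27 and -2.25, Cadm1 at -1.99 and -2.70, and Lrp1, an endocytic receptor, at -1.98 and -2.50. The H2afv, Cadm1 and Tgfbr1 regions overlap a region with a prediction, and that of Pdxk an exon of another gene.

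Few differences between treatments or genotypes in these responses passed a test of the difference itself (normal test on the counts, Benjamini-Hochberg adjusted p under 0.05, at least 10 reads in each of the 4 libraries). The WT over KO RIP ratio differed between LPS and untreated cells in 5 of 426 regions, against 2.34% of all 6676 regions tested. They belonged to Fth1, Mmp12, Pstpip1 and Trem2, of which Mmp12, the macrophage metalloelastase, was the positive one at 1.98 (1.02 to 2.95). The LPS response in Input differed between genotypes in 9 of 840 regions, against 2.2% of 8424, and all 9 were more negative in the WT. They belonged to Actb, Cd52, Cst3, Fcer1g, Fth1, Ftl1, Rpl41 and Slc25a39. Mmp12, Pstpip1, Cd52, Cst3 and Slc25a39 were named after their values were seen.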

How the data were processed

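CPEB4 RIP and Input libraries of WT and KO macrophages, untreated or given LPS, were sequenced, and groups were taken from the labels. The authors aligned 100-base single-end reads to mm10 in local mode, removed duplicates and deposited counts of reads overlapping annotated 3′-UTR regions, with both lanes of a library in 1 column. Submitters' processing notes name Bowtie2 2.2.2 and MACS 1.4.2. The authors also deposited RPKM values, used here to recover library totals, and columns of their own fold changes and p-values, which were not used. The CPE prediction is the deposited one.

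From the counts, log2 ratios were computed with 1 read added, scaled to the sum over entries with a symbol. Distinct regions with at least 10 reads in a pair were tested by a two-sided chi-square test of the region's reads and the remaining 3′-UTR reads of both libraries, adjusted by Benjamini-Yekutieli over all regions tested, and called with an adjusted p under 0.02 and a log2 ratio beyond 0.5. Intervals are 95% normal intervals from the counts (Wilson for shares). With 1 library a group these tests cover counting error, and the 467696 to 2492300 3′-UTR reads make 3 reads equal 1.20 to 6.41 CPM (reads per 1000000 3′-UTR reads). Motifs were read from the genome and equalled the deposited motif counts in 100% of 26860 regions. The chi-square test, checked on simulated counts with 200 regions changed 4-fold, recovered 179 (untreated RIPs) and 188 (LPS RIPs) and called 0 unchanged regions. That simulation held counting error alone, and the changed regions were taken from deeper ones, of 50 reads or more. Of the short regions tested, 359 of 1329 (untreated RIPs) and 595 of 1616 (LPS RIPs) reach that depth. The check therefore cannot speak for shallower regions or for variation between libraries.

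Genes were named by rule, 1 region each: the 8 with the most Input reads; up to 8 in each direction with the largest mean WT over KO RIP ratio among those called alike in both treatments with at least 50 reads in each pair; the 5 with the highest mean WT RIP over Input ratio called in both treatments; the 5 highest and 5 lowest mean LPS over untreated Input ratios called in both genotypes with at least 50 reads; and the 2 most read members of each of 14 gene lists. Together these were 56 entries. The members and lists were chosen with earlier results of these data known. Alternatives were TMM factors, median-of-ratios size factors, library totals, 0.1 reads added, at least 50 or at least 1 read, an exact binomial test, edgeR with a preset coefficient of variation of 0.4, Benjamini-Hochberg adjustment, all entries, 1 region per gene, and regions without overlaps. Python 3.11.15, numpy 2.4.6, scipy 1.17.1, pandas 2.3.3, pysam 0.24.0, R 4.3.3, edgeR 4.0.16, DESeq2 1.42.0 and bedtools 2.31.1 were used.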

Additional observations from a re-analysis of the deposited data

Results flagged for a closer look

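The results here were picked out because the effect of 1 factor differed between the levels of the other, by a normal test of the difference on the counts with Benjamini-Hochberg adjustment over all regions tested. Each group was 1 library, so the test compares libraries and covers counting error only. The difference of the LPS over untreated Input log2 ratio, WT minus KO, was -0.58 for Actb (95% interval -0.76 to -0.39, adjusted p 4.3e-07), -0.62 for Fcer1g (-0.85 to -0.39, adjusted p 6.4e-05), -0.72 for Fth1 (-0.97 to -0.47, adjusted p 1.0e-05), -0.66 for Ftl1 (-0.92 to -0.41, adjusted p 9.9e-05) and -0.80 for Rpl41 (-1.14 to -0.46, adjusted p 0.000942).

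In each of these 5 the untreated WT Input stood above the untreated KO Input, and the LPS WT Input below the LPS KO Input. For Fcer1g the levels were 475 (WT) and 375 (KO) CPM untreated and 429.5 and 521 with LPS, and for Rpl41 they were 278 and 167 and 186 and 194. The median of this difference over the 840 short regions tested was -0.20, against 0.06 over the other regions.

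In the RIPs, the WT over KO log2 ratio with LPS minus that in untreated cells was -1.57 for Trem2 (-2.49 to -0.66, adjusted p 0.0398) and -0.62 for Fth1 (-0.98 to -0.27, adjusted p 0.0353). The LPS response of Trem2 in Input was -1.58 (WT) and -1.13 (KO), and the level in the WT RIP with LPS, 7.22 CPM, rests on 18 reads.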

How the results depend on the processing

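No paired analysis was possible because each genotype, treatment and assay was 1 library. No replicate could be left out for the same reason. On library totals the median WT over KO RIP log2 ratio of the short regions turned to 0.27 untreated and 0.47 with LPS, the input-corrected median moved to -0.17 untreated and turned to 0.41 with LPS, and called regions turned sign at 0.18 (Fth1) and 0.14 (Ftl1) untreated and at 0.30 (Ftl1), 0.11 (Tmsb4x), 0.28 (Pnp), 0.11 (C1qc), 0.39 (Ptges), 0.21 (Atp6v0c) and 0.11 (Grn) with LPS; the shift of all regions by the scaling itself accounts for these. Further called regions kept their sign on library totals but came to lie within the log2 ratio limit of 0.5. Examples are Actb, Fth1, Fau and Ccl5 with LPS, Trem2 untreated and Fcer1g in both treatments. Scaling left the medians relative to the other regions as they were by construction.

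The number of short regions higher in the untreated WT RIP (5) became 12 with TMM factors, 87 on library totals, 8 with median-of-ratios factors, 8 with the exact binomial test, 0 with edgeR at a coefficient of variation of 0.4, 13 with Benjamini-Hochberg adjustment, 1 with 1 region per gene and 1 without overlapping regions. The number lower (99) became 54 with TMM factors, 10 on library totals, 0 with edgeR, 180 with Benjamini-Hochberg adjustment, 48 with 1 region per gene and 53 without overlapping regions. With LPS the number higher (13) became 51 with TMM factors, 282 on library totals, 28 with median-of-ratios factors, 7 with at least 1 read, 0 with edgeR, 42 with Benjamini-Hochberg adjustment, 4 with 1 region per gene and 2 without overlapping regions. The number lower (313) became 174 with TMM factors, 25 on library totals, 193 with at least 50 reads, 0 with edgeR, 135 with 1 region per gene and 133 without overlapping regions. For RIP over Input, the WT count lower untreated (370) became 217 with at least 50 reads; with LPS the WT count higher (123) became 191 with TMM factors and 248 on library totals, and the count lower (683) became 419 on library totals and 414 with at least 50 reads. The KO count higher untreated (77) became 27 on library totals and 34 with at least 50 reads and the count lower (29) became 208 on library totals; with LPS they (111 and 94) became 44 and 403.

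The median of the short regions minus that of the other regions (-0.49 untreated, -0.63 with LPS) stayed below 0 in all alternatives run. Untreated it was -0.42 with added reads shared in proportion to library size, an alternative chosen after seeing the data, -0.70 with at least 1 read, -0.65 with 1 region per gene and -0.79 without overlapping regions. With LPS it was -0.50 with at least 50 reads, -0.84 with 1 region per gene and -1.03 without overlapping regions. The difference by U-rich motif with LPS (0.94) was 1.03 with 0.1 reads added, 0.77 with at least 50 reads and 1.04 with edgeR. The input-corrected median (-1.0, -0.79) was -0.80 untreated and -0.43 with LPS with TMM factors, and -1.20 untreated with at least 50 reads in each library. The Input level of the shortest over that of the longest regions (2.74) was 1.60 with the read length added. The other 105 recomputed values that answer a comparison moved less. Depth limits single regions: 3 reads equal 6.41 CPM in the untreated KO RIP, against a median level of 8.55 there.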
